A study of Caenorhabditis elegans with 4 samples.

Results

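Chromosome V carried 436 of the 2715 regions called as bound by UNC-130::GFP in first-stage larvae of Caenorhabditis elegans. They were taken as every line of the deposited list of regions whose chromosome is V, with no other condition. The method was ChIP-seq (chromatin immunoprecipitation followed by sequencing), in which DNA crosslinked to a protein is pulled down with an antibody and sequenced. The animals were fed L1 hermaphrodites of strain OP77, grown at 20 °C, and the pull-down used an affinity-purified goat antibody to green fluorescent protein. ChIP DNA and input DNA were each sequenced from replicates 1 and 2, giving 4 libraries, all of this same strain.

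OP77 animals carry the unc-119 mutation ed3 on chromosome III and the integrated transgene wgIs77, which supplies a working unc-119(+) together with unc-130::TY1::EGFP::3xFLAG. The transgene was introduced by particle bombardment, and the strain was outcrossed. It is 1 integrated line, and the sources used here do not give the place of integration. By name, unc-130 and unc-119 belong to chromosomes II and III, so neither is a gene of chromosome V. There was no library from animals without the tag. In whole larvae, binding in few cells and weak binding in many cells cannot be told apart.

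UNC-130 is a forkhead-domain transcription factor, a family that binds DNA through a winged-helix fold. In C. elegans it is known for the asymmetric divisions that give rise to certain chemosensory neurons and for repressing the TGF-β family gene unc-129 in body wall muscle, which guides the migration of cells and axons along the dorsal-ventral axis. The autosomes of this worm have gene-dense centres of low recombination, where conserved and essential genes are common, and arms that recombine more and hold more repeats and more genes of fast-evolving families.

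Chromosome V is the chromosome of chemoreceptors, and this shows in the gene table of RefSeq for assembly WBcel235. Of 4995 protein-coding genes on V, 872 (17.5%) have a symbol of a G-protein-coupled chemoreceptor family (str, srh, srw and related names), which is 69.9% of the 1247 such genes of the table. These receptors sense odours and tastes in sensory neurons. When the genes of V were put in order and divided into 3 equal sets, chemoreceptors were 21.9% of the left set, 10.6% of the middle set and 19.8% of the right set. Nuclear hormone receptors (nhr), which are transcription factors that ligands can regulate, numbered 167 on V of 269 in all, with 91 in the left set, 28 in the middle set and 48 in the right set. Cytochrome P450 genes (cyp), many of which act in detoxification, numbered 41 of 74, with 26 in the left set. Other families lay elsewhere on the chromosome. F-box genes (fbxa, fbxb and fbxc), whose products select proteins for ubiquitination, had 75 of 87 in the right set, and C-type lectins (clec), with a carbohydrate-binding fold, had 60 of 85 there. Collagens (col), the main proteins of the cuticle, had 24 of 31 in the middle set, and homeobox genes with ceh names, which encode transcription factors, had 7 of 12 there. These counts describe the chromosome and not the binding, because the regions lie on WormBase release WS180 and no region was assigned to a gene. The sets of genes are equal in genes and the parts of the chromosome used below are equal in length.

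Each region has a chromosome, a start, an end and a q value (a p-value adjusted for multiple testing) from the authors' peak caller, PeakSeq. The list combines the libraries and gives none of them a value of its own, so replicates could not be compared, and the sequencing depth behind a region is unknown. Comparisons are given side by side without a test, since neighbouring regions are not independent. Intervals on shares are 95% exact (Clopper-Pearson) binomial intervals, those on densities exact Poisson intervals and those on medians exact order-statistic intervals. They cover the counting of regions only.

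The regions of chromosome V ran from V:16531-16764 to V:20915801-20916118, a span of 20.9 Mb. Their density was 20.9 regions per Mb (18.9 to 22.9), against 28.9 (27.8 to 30.2) on the other 5 chromosomes together. Chromosome IV was close to it with 21.3 per Mb (19.2 to 23.6), and chromosome II had 26.3 (23.8 to 29.0). Chromosome X had 26.7 and III had 30.4, and chromosome I was the densest with 41.8. In the 20 complete windows of 1 Mb on V the count ran from 9 to 32 with a median of 20. The sparsest window, at 17 to 18 Mb, held 9 regions, and the windows at 10 to 11 Mb and 11 to 12 Mb held 32 each. Regions covered 233 kb of V, or 11.2 bp per kb of span, against 14.05 bp per kb on the others together.

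The middle part of chromosome V held more regions than the left or the right part. The span was divided into 3 equal parts (left, middle and right) of 6.97 Mb, with borders at 6983060 and 13949589. The left and right parts are also called arms here. They were set by length only, so they need not match the arms defined by recombination or gene content. The middle part held 180 regions, 41.3% of those on V (36.6% to 46.1%), the left part 137 (31.4%, 27.1% to 36.0%) and the right part 119 (27.3%, 23.2% to 31.7%). In density this was 25.8 per Mb in the middle (22.2 to 29.9), 19.7 on the left (16.5 to 23.2) and 17.1 on the right (14.2 to 20.4). Of the covered bases, 46.2% lay in the middle part. The middle part also held the most regions on chromosomes I (36.7%) and III (36.8%). On chromosome X the right part held the most (36.5%), with 32.4% in the middle. On chromosome IV, one of the chromosomes nearest to V in density, the left part held the most regions (43.0%) and the middle 111 of 370, and on chromosome II the middle (39.8%) and right (40.5%) parts were nearly equal with 19.8% on the left. No difference between chromosomes was tested.

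**Figure D1:**
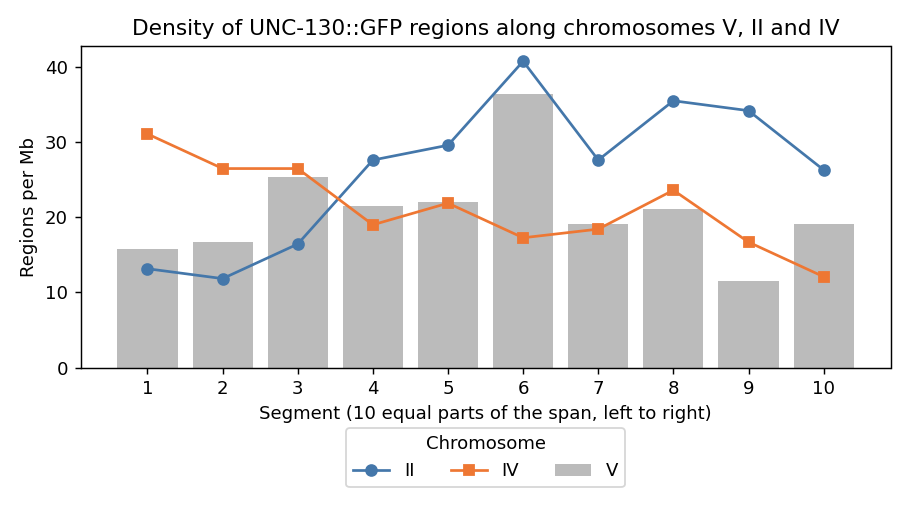
Regions per Mb (y axis) in each of 10 equal segments of the span between the outermost regions (x axis, left to right) for chromosome V (bars) and chromosomes II and IV (lines). On V segment 6 reaches 36.4 regions per Mb and segment 9 falls to 11.5.

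Counted region by region, much of the surplus in the middle lay in 1 stretch. With the span divided into 10 equal segments of 2.09 Mb, chromosome V had 76 regions in segment 6, from 10.47 to 12.56 Mb, a density of 36.4 per Mb. The segment to its left held 46 regions and the segment to its right 40. The rest of the middle part held 104 regions at 21.3 per Mb. Segment 6 includes every member of the close groups of 7 and 6 regions described below. Density by segment was not computed with such groups counted once. The densest segment of the arms was segment 3, from 4.20 to 6.29 Mb, with 53 regions (25.4 per Mb). The lowest counts were 24 in segment 9, from 16.74 to 18.83 Mb, 33 in segment 1 and 35 in segment 2. The last segment, at the right end, held 40, so density did not fall steadily toward that end. The plot of density by segment shows that chromosome IV had no such central maximum and that chromosome II peaked in the same segment, at a higher level.

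The strongest regions of V lay in all 3 parts, most often in the middle part. Of the 25 regions with the lowest q on V, 14 lay in the middle part, 6 in the left and 5 in the right, and 8 lay in segment 6. Of all regions of V, 41.3% lay in the middle part and 17.4% in segment 6. No interval was computed for the counts among the 25, and 5 of the 14 lay within 1 stretch of 38.6 kb. On V 19 regions had q at or under 1e-10, 4.36% (2.64% to 6.72%), against 3.24% of the whole list. Of these, 11 lay in the middle part. At looser limits V was near the whole list or somewhat under it. For q at or under 1e-05 they numbered 77, 17.7% (14.2% to 21.6%) against 19.9% of the whole list, and for q at or under 0.001 they numbered 218 of the 436, against 51.7% of the whole list. The median −log10 q was 3.00 on V (2.86 to 3.17) and 3.04 on the other chromosomes together (3.00 to 3.13).

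**Figure D2:**
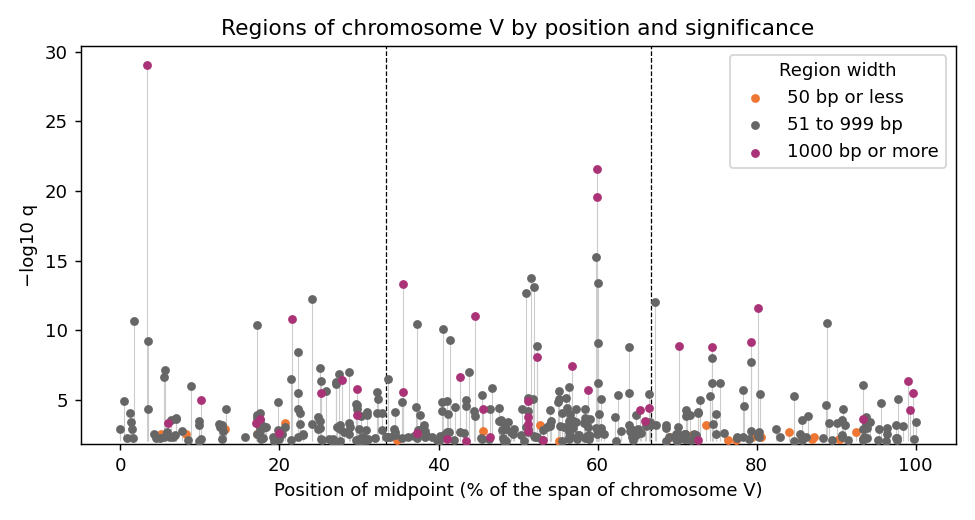
Each of the 436 regions of chromosome V as a point, by the position of its midpoint in per cent of the span (x axis) and −log10 q (y axis), coloured by width, with dashed lines between the 3 parts. The highest point, on the left arm, has q = 8.67e-30, and the next 2 stand together in the middle part with q = 2.90e-22 and q = 2.83e-20.

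The most significant region of V was a broad one on the left arm, V:723708-728354, with a width of 4647 bp (q = 8.67e-30). It was also the widest of the chromosome and the sixth most significant of the whole list. Within 5 kb to its right lay V:728895-729614 (q = 4.64e-05) and V:731304-731868, which ranked 21 on V (q = 6.13e-10). These 3 regions covered 72.7% of a stretch of 8.16 kb. To the left, the nearest region was V:381229-381821, which ranked 15 (q = 2.34e-11), and the 342 kb between them held no region.

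The regions ranked 2 and 3 belonged to 1 compact group in the middle part. V:12548663-12550577 was 1915 bp wide (q = 2.90e-22) and V:12551607-12553741 was 2135 bp wide (q = 2.83e-20). V:12554128-12554822 followed after 386 bp and ranked 6 (q = 4.07e-14). V:12555781-12556347 ranked 47 (q = 5.86e-07), and V:12556809-12557335 ranked 23 (q = 8.46e-10). The 5 regions covered 67.3% of 8.67 kb, and significance fell from left to right except at the last. The region ranked 4, V:12518711-12519193, lay to the left of this group with a width of 483 bp (q = 5.88e-16). From it to the end of the group, 38.6 kb held 7 regions, 5 of them among the 25 most significant of V.

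**Figure D3:**
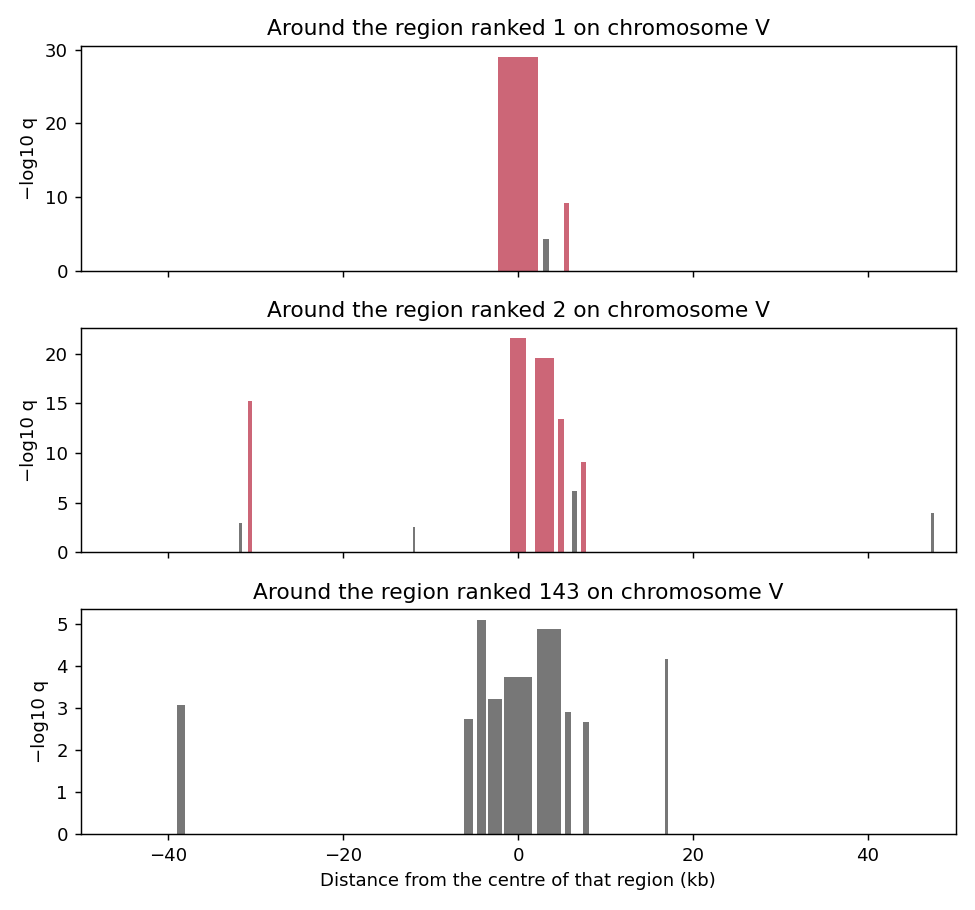
Regions within 50 kb of the region ranked 1 (top), the region ranked 2 (middle) and the widest region of the 7-region group, ranked 143 (bottom); the x axis is distance in kb from its centre, the y axis −log10 q (scales differ), and bars are drawn to region width, red for the 25 most significant of V. The first 2 panels show strong regions side by side, and the bottom panel shows the 7-region group and its neighbours, with q no lower than 8.16e-06.

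The region ranked 5 stood alone. V:10807930-10808302 was 373 bp wide (q = 1.90e-14), and no other region lay nearer than 49881 bp. V:10897189-10897529, of 341 bp, ranked 8 (q = 8.56e-14), V:10664236-10664781 ranked 9 (q = 2.14e-13) and V:10965490-10965943 ranked 24 (q = 1.30e-09). The 302 kb from rank 9 to rank 24 held 18 regions and 4 of the 25 most significant. Elsewhere in the middle part V:7436248-7437300 ranked 7 (q = 4.80e-14), V:9342997-9344652 ranked 13 (q = 9.88e-12) and V:7822514-7823078 ranked 17 (q = 3.92e-11). V:8500378-8500709 ranked 19 (q = 8.74e-11) and V:8667096-8667956 ranked 20 (q = 5.49e-10).

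The arms held the other strong regions. On the left arm V:5049248-5049894 ranked 10 (q = 5.43e-13), V:4523322-4524769 ranked 14 (q = 1.64e-11) and V:3610670-3611142 ranked 18 (q = 4.56e-11). On the right arm V:14054995-14055508, just beyond the border of the middle part, ranked 11 (q = 9.87e-13). V:16778442-16780289 ranked 12 (q = 2.52e-12) and V:18581732-18582217 ranked 16 (q = 3.15e-11). V:16593115-16595759 ranked 22 (q = 7.00e-10), and V:14685304-14689640, the second-widest region of V with 4337 bp, ranked 25 (q = 1.34e-09). None of the 25 lay in the last segment of the span.

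Regions of V were about as wide as those of the other chromosomes. The median width was 390.5 bp (361 to 428) on V and 376 bp (366 to 386) on the other chromosomes together. Regions of at least 1000 bp numbered 42, or 9.63% (7.03% to 12.8%), against 7.4% of the whole list, and they held 32.8% of the covered bases of V. Regions of 50 bp or less numbered 25, or 5.73% (3.74% to 8.35%), against 4.68% of the whole list. Both intervals include the share of the whole list.

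The narrowest regions were most numerous on the right arm, and the broad ones in the middle part. The middle part held 22 of the 42 broad regions, which made up 12.2% of its regions (7.82% to 17.9%). On the left they were 11 (8.03%, 4.08% to 13.9%) and on the right 9 (7.56%, 3.52% to 13.9%), and the 3 intervals overlap. The middle part also had the highest share of broad regions on each of the other chromosomes, with 5.65% on I, 10.7% on II, 9.74% on III, 12.6% on IV and 12.7% on X. Of the 25 regions of 50 bp or less, 15 were on the right arm, 12.6% of its regions (7.23% to 19.9%), against 5 in the middle (2.78%, 0.908% to 6.36%) and 5 on the left (3.65%, 1.20% to 8.31%). The right arm's interval does not overlap that of the middle part and overlaps that of the left arm slightly. On chromosome II such narrow regions were 11.4% of the left arm. The median width was 330 bp on the right (288 to 385), 422 bp in the middle (374 to 478) and 403 bp on the left (334 to 471). The median −log10 q was 2.66 on the right (2.50 to 3.17), 3.07 in the middle (2.84 to 3.42) and 3.03 on the left (2.84 to 3.32). The share with q at or under 0.001 was 42.9% on the right arm, 52.2% in the middle and 53.3% on the left, and these intervals overlap.

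**Figure D4:**
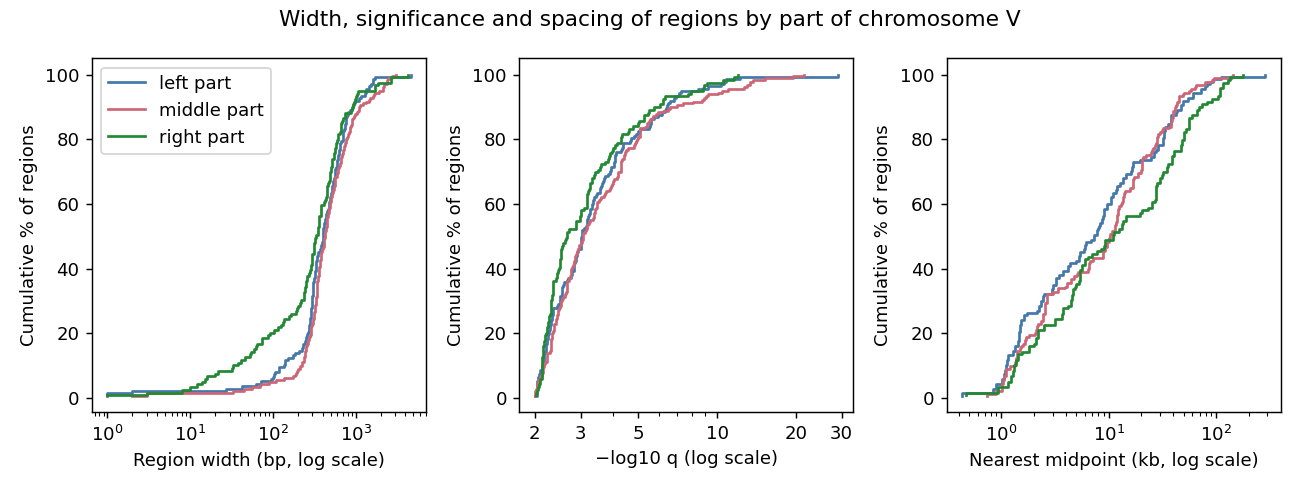
Cumulative per cent of regions (y axis) by width in bp, −log10 q and distance to the nearest midpoint in kb (x axes, log scale) for the left (137 regions), middle (180) and right (119) parts of chromosome V. The curve of the right part starts earlier on the width axis, with 12.6% of its regions at 50 bp or less, and lies lowest from 20 to 100 kb on the distance axis.

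The narrowest calls were weak and mostly stood alone. None of the 25 regions of 50 bp or less had a q value at or under 1e-05, against 17.7% of all regions of V and 19.9% of the whole list. Only 2 of the 25 had another region within 5 kb, against 40.6% of all regions of V and 40.5% of the whole list. Their lowest q was 4.77e-04, at V:4337990-4338016. The 10 widest regions ran from rank 1 to rank 432 in significance. V:723708-728354 (rank 1), V:16593115-16595759 (rank 22), V:14685304-14689640 (rank 25) and V:15567381-15570048 (rank 26, 2668 bp, q = 1.61e-09) were among the 26 most significant of V. V:9545187-9547552, of 2366 bp, ranked 105 (q = 5.03e-05) and V:13787500-13789906, of 2407 bp, ranked 159 (q = 3.36e-04). At the other end V:11122443-11124672, of 2230 bp, ranked 404 (q = 0.00744), and V:9095074-9097504, of 2431 bp, ranked 432 of 436 (q = 0.00963). The other 2 of the 10 are neighbours in the group of 7 regions described next. Spearman's rho between width and −log10 q was 0.42 over the 436 regions. Both come from the same peak call, and rho was between 0.33 and 0.45 on the other chromosomes.

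Most regions of V stood alone, and the share with a close neighbour was that of the whole list. When regions with edges 5 kb or less apart were chained, 259 of the 436 stood alone and 177 (40.6%, 35.9% to 45.4%) fell into 71 groups, against 40.5% of the whole list with another region within 5 kb. Of the 71 groups, 49 were pairs, 16 were triplets and 6 held 4 or more regions. Another region lay within 1 kb of 87 regions of V, 19.95% (16.3% to 24.02%), against 13.7% (12.3% to 15.2%) on the other chromosomes together. It was 17.1% (14.2% to 20.2%) on I, which overlaps the interval of V, 15.3% on II and 7.57% on IV. No difference was tested.

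Chained regions were wider than single ones. The median width was 473 bp (428 to 527) for the 177 in groups and 342 bp (314 to 379) for the 259 alone. The median −log10 q was 3.17 (2.93 to 3.57) against 2.88 (2.69 to 3.07), and these intervals overlap. Of the chained regions 41 had q at or under 1e-05 (23.2%), and of the single ones 36 did (13.9%).

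The largest group, of 7 regions, lay in segment 6 at V:10713695-10728034. Its regions covered 76.5% of 14.3 kb and included the 2 widest of the middle part, V:10718360-10721478 (3119 bp, q = 1.85e-04) and V:10722049-10724790 (2742 bp, q = 1.34e-05). The lowest q of the group was 8.16e-06, which ranked 72. Its calls were therefore moderate, unlike those of the group at V:12548663-12557335, where the lowest q was 2.90e-22. The next group, of 6 regions at V:11792511-11802895, covered 22.2% of 10.4 kb and had a lowest q of 1.15e-06. On the right arm 5 regions lay at V:19521055-19529619 (lowest q = 8.99e-07), and on the left arm 4 lay at V:3606451-3611142, among them the region ranked 18.

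The longest empty stretches of V lay mostly on the arms. Of the 435 gaps between neighbouring regions of V, 65 were longer than 100 kb and together took up 54.1% of the span. The same share was 43.6% on chromosome IV, 33.4% on II and 13.6% on I. Of these 65 gaps, 18 lay wholly in the left part, 19 in the middle and 27 in the right, which are parts of equal length. Of the 10 longest, 4 lay in the left part and 5 in the right. The longest were V:2803785-3293088 (489 kb), V:2135803-2600597 (465 kb), V:16842041-17246597 (405 kb), V:381822-723707 (342 kb) and V:3293161-3579234 (286 kb). The first and last of these are divided only by V:3293089-3293160, a region of 72 bp (q = 0.00492), so that 775 kb of the left arm held 1 region. The longest gap of the middle part was V:12728613-13003245 (275 kb).

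Taken as a whole, the left part had a shorter median distance to a neighbour than the middle part, although its density was lower. The median distance to the nearest midpoint was 7.28 kb there (4.34 to 9.54), against 10.2 kb (7.21 to 12.3) in the denser middle part and 11.0 kb (5.66 to 25.3) on the right arm. In the left part 45.3% of regions had another within 5 kb, in the middle 38.9% and on the right 37.8%. The intervals of the parts overlap for both measures. The left part was also uneven. Its median distance was 26.6 kb in segment 1 (15.8 per Mb) and 7.28 kb in segment 2 (16.7 per Mb). In segment 3, with 25.4 per Mb, it was 5.30 kb. Low density and close neighbours therefore did not go together in every segment.

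The makeup of the list by part was followed from the strongest to the weakest calls. When the 436 regions were ranked by q and divided into 4 sets of 109, the middle part held 47.7% (38.1% to 57.5%) of the most significant set, 38.5% and 45.9% of the next 2 and 33.0% (24.3% to 42.7%) of the least significant. The right part held 24, 27, 30 and 38 regions of these sets in the same order. The median width of the sets was 567, 388, 363 and 283 bp. The intervals of the first and last sets overlap for the middle share, and no interval was computed for the right part.

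**Figure D5:**
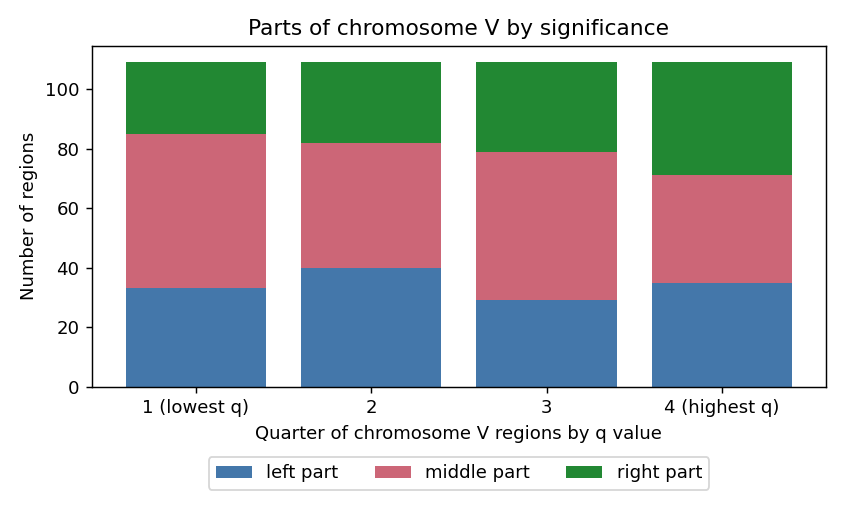
Number of regions (y axis) from the left, middle and right parts of chromosome V in 4 sets of 109 regions ordered from the lowest to the highest q (x axis). The right part grows from 24 to 38 regions across the sets, and the middle part has 52, 42, 50 and 36 in the same order.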

How the data were processed

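Per the file headers, the authors' list uses coordinates of WormBase WS180, and its source column names PeakSeq. The deposited q value, a p-value adjusted for multiple testing, is the only measurement of a region. The aligner, the PeakSeq version, the read depth and how the 2 replicates were combined are not stated in the labels or the file. All q values were under 0.01, and no gap between neighbours was under 200 bp.

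A region's position is its midpoint, and its width includes both end bases. WS180 chromosome lengths were not used here, so the span runs between the outermost regions. Parts, chains of regions and intervals were computed with Python 3.11.15, numpy 2.4.6, pandas 2.3.3 and scipy 1.17.1, and the functions were tested on simulated data. The regions named are the 25 most significant, the 10 widest, the largest groups, the longest gaps and the first and last. V:4337990-4338016, V:3293089-3293160 and the neighbours within groups were named after their values were seen. The members and lists were chosen with earlier results of these data known. Gene positions and sequences on WS180 were not used here, so motifs and nearest genes are not analysed here.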

Additional observations from a re-analysis of the deposited data

How the results depend on the processing

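The share of regions of V in the middle part was 41.3% and stayed between 40.2% and 44.5% with a q value at or under 0.001, for the 50% of the list with the lowest q, with merging at 1000 or 5000 bp, without regions of 50 bp or less and with the span begun at position 1. It was 46.2% in covered bases, and 62.4% of regions lay in the middle 50% of the span. With q at or under 0.001 the density fell to 10.4 per Mb, the median width rose to 463.5 bp, the median distance to the nearest midpoint rose to 16.7 kb and the share with another region within 5 kb fell to 28.0%. For the 50% with the lowest q these were 10.1 per Mb, 473 bp, 16.6 kb and 27.5%. Fewer regions enter both by construction. Merging at 1000 bp gave a distance of 12.5 kb and a share of 27.6%, and 27.8% of regions had another within 2 kb. The median width of the middle part exceeded that of the arms by 58.0 bp (interval -40.0 to 153), by 1 bp for the lower 50% of q values and by 124.5 bp for the middle 50% of the span. Chosen after seeing the data, the comparison with each arm gave 19.0 bp on the left and 92.0 bp on the right. The difference in median −log10 q was 0.12 (range -0.32 to 0.72, formed in the same way), and 0.05 against the left arm and 0.41 against the right arm. No paired analysis was possible because regions carry no values of single replicates, which also means that leaving out a replicate could not be run. Read depth, which limits what could be called, is unknown.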
